A study of Homo sapiens with 9 samples.

Results

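The PTP4A family, also called phosphatases of regenerating liver (PRL), has 3 members, PTP4A1 (PRL-1), PTP4A2 (PRL-2) and PTP4A3 (PRL-3). They were taken by gene symbol from a table of 38478 gene rows, and all 3 were among the 13262 genes that passed the filter on low counts. PTP4A1 and PTP4A2 entered by name only. PTP4A3 was chosen by its measured fold changes, a fall in cells expressing both targeting RNAs, so its values in the contrasts of those cells are a description and carry no test.

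PRL phosphatases are small enzymes with a cysteine at the active site. They carry a prenyl group at the C-terminal end, which holds them at the plasma membrane and endosomal membranes. Their best described partners are the CNNM proteins, which regulate cellular magnesium, and binding to CNNM involves the same pocket as catalysis. PTP4A1 and PTP4A2 are broadly expressed, whereas PTP4A3 is expressed in fewer tissues, is known for its rise in metastatic colorectal cancer, and is raised in many multiple myelomas, where interleukin-6 has been described to induce it.

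The data are RNA sequencing of polyadenylated transcripts, from a library kit that keeps strand, in OPM-1, an established human myeloma line grown in RPMI with serum, whose genotype the labels give as WT in all groups. The cells stably expressed RNAs targeting FBXW7 together with KMT2D (gFBXW7_gKMT2D), FBXW7 alone (gFBXW7) or luciferase (gLuc, the control), and each of the 3 groups has 3 libraries that the submitters describe as separate biological replicates. FBXW7 is an F-box protein that brings substrates to a ubiquitin ligase, and KMT2D is a histone H3 lysine methyltransferase. The labels state neither how the RNAs act on their targets nor whether each population was a clone or a pool. The series title names the question as what loss of FBXW7, alone or with loss of KMT2D, does to messenger RNA.

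Total counts ranged from 16337492 (gFBXW7_gKMT2D 3) to 27076242 (gFBXW7_gKMT2D 2) per library. All 10 plasma cell markers of a list that includes XBP1 and JCHAIN passed the filter, with a summed level of 6913 to 9231 RPKM (reads divided by gene length and by the counted reads of the library) in the gFBXW7_gKMT2D libraries, 8388 to 8882 RPKM in gFBXW7 and 7983 to 9140 RPKM in gLuc. JCHAIN (mean 6702 RPKM) made up most of this sum. No marker of this list passed the edgeR test in gFBXW7_gKMT2D against gFBXW7 or gLuc. The median log2 fold changes were -0.04 and -0.17, beside 0.02 and 0.00 over all tested genes. SDC1 alone had an unadjusted p under 0.05 by edgeR in both (log2 fold changes of -0.40 and -0.36). Its gFBXW7_gKMT2D libraries (82.8, 86.1 and 55.1 RPKM) were below all others (92.4 to 104 RPKM). Of 16 markers of other cell types, 2 passed, HBB (mean 53.8 RPKM) and PECAM1 (mean 0.184 RPKM). The summed level of these markers, nearly all HBB, was 41.7 to 59.96 RPKM in gFBXW7_gKMT2D, 54.8 to 68.3 RPKM in gFBXW7 and 37.8 to 62.7 RPKM in gLuc. In the shares of counts from ribosomal protein genes and from mitochondrial DNA, 2 libraries stood apart. Other differences between libraries are given at the end. Ribosomal protein genes took 11.1% of the counts of gFBXW7_gKMT2D 3, and 4.96% to 8.46% in each of the other 8. The 13 protein-coding transcripts of mitochondrial DNA took 3.63%, 3.67% and 2.04% of the counts in the gFBXW7_gKMT2D libraries, 0.638%, 1.52% and 1.54% in gFBXW7 and 1.64%, 3.02% and 3.33% in gLuc, so that gFBXW7 1 was the lowest. Values of the members that move with gFBXW7_gKMT2D 3 are given with and without it. The mRNA of neither targeted gene passed the edgeR test in any of the 3 comparisons (adjusted p of 0.90 or more). FBXW7 had 7.33, 7.83 and 9.74 RPKM in gFBXW7_gKMT2D, 8.24, 8.84 and 8.92 RPKM in gFBXW7 and 8.33, 7.93 and 8.27 RPKM in gLuc. KMT2D had 2.31, 5.60 and 1.18 RPKM in gFBXW7_gKMT2D, 2.28, 3.14 and 2.91 RPKM in gFBXW7 and 1.92, 2.92 and 5.35 RPKM in gLuc. The groups of both genes overlapped, and mRNA levels therefore do not check the labels here. Protein was not measured in these data.

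The 3 genes lie on 3 chromosomes. On GRCh38, with GENCODE v29 annotation, PTP4A1 spans chromosome 6, 63521746 to 63583377, on the plus strand. PTP4A2 spans chromosome 1, 31906421 to 31944856, on the minus strand. Their coding sequences are alike but not interchangeable for read counting. Over the whole coding sequence PTP4A1 and PTP4A2 were 73.9% identical, PTP4A1 and PTP4A3 69.0%, and PTP4A2 and PTP4A3 65.9%. The 60 coding bases around the catalytic cysteine, the most typical stretch of the family, show this for the 2 members of which sequence is printed, read 5′ to 3′ in the coding sense from GENCODE v29 transcripts, with capitals at the 15 positions where the 2 genes differ.
PTP4A1: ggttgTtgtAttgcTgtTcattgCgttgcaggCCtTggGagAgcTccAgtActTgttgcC
PTP4A2: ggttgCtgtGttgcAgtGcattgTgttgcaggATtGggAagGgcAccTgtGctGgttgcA
In the same window PTP4A3 differed from PTP4A1 at 17 and from PTP4A2 at 19 of 60 bases. No stretch of 50 bases was shared between annotated transcripts of any 2 members. With the 9 annotated pseudogenes of PTP4A1 and PTP4A2, 0.484% of the distinct 50-base stretches of PTP4A1, 1.42% of those of PTP4A2 and none of the 2965 of PTP4A3 were shared. The table has no row for these pseudogenes, nor for the 6 GENCODE genes that overlap a member, of which AL135905.2 overlaps PTP4A1 over 11366 bases on the same strand and AL136115.2 overlaps PTP4A2 over 15421 bases on the same strand. PTP4A3 is overlapped over 582 bases by AC100803.1, an antisense gene. The levels of all 3 members are uncertain to that extent. How reads matching several places were counted, and with which strand setting, is not given in the sources used here.

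PTP4A3 spans chromosome 8, 141391993 to 141432454, on the plus strand. It was lower in the cells expressing both targeting RNAs than in either other group. It had 162, 214 and 98 reads in the gFBXW7_gKMT2D libraries, 324, 274 and 318 reads in the gFBXW7 libraries and 300, 274 and 284 reads in the gLuc libraries. Per gene length and depth this was 1.44, 1.25 and 0.951 RPKM in gFBXW7_gKMT2D, 2.69, 2.58 and 2.63 RPKM in gFBXW7 and 2.45, 2.55 and 2.34 RPKM in gLuc. All 3 gFBXW7_gKMT2D libraries lay below all 6 others, and the highest of them, gFBXW7_gKMT2D 1, was still well under the lowest gLuc library. The smallest count, 98 reads in gFBXW7_gKMT2D 3, has an exact Poisson 95% interval of 79.6 to 119 reads, which covers counting error only.

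The group means of PTP4A3 were 1.22 ± 0.248 RPKM in gFBXW7_gKMT2D, 2.63 ± 0.0534 RPKM in gFBXW7 and 2.45 ± 0.106 RPKM in gLuc (SD, n = 3 each). On the log2 scale the gFBXW7_gKMT2D cells differed by -1.10 (SE 0.14) from gFBXW7 and by -0.95 (SE 0.14) from gLuc, comparisons that share the gFBXW7_gKMT2D libraries. These are the values that chose the gene, and no test is given. For scale, 5.2% of the 13262 genes in the first comparison and 3.69% in the second had their libraries apart in this direction, and 0.271% and 0.279% had a log2 fold change of -1 or lower. The lowest library of PTP4A3 was also the one with the highest ribosomal protein share, and without gFBXW7_gKMT2D 3 the log2 fold changes were -1.03 and -0.89. The mitochondrial share was higher in every gFBXW7_gKMT2D library than in every gFBXW7 library and overlapped with gLuc, and its part in the PTP4A3 values was not tested. Without gFBXW7 1 the log2 fold change against gFBXW7 was -1.06. With the dependence of each library on gene length removed, an alternative chosen after the data had been seen, the log2 fold changes were -1.10 against gFBXW7 and -0.88 against gLuc.

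The remaining contrast of PTP4A3 was not used to choose it. PTP4A3 did not pass the test with the FBXW7-targeting RNA alone, with a log2 fold change of 0.15 (SE 0.14, 95% interval -0.17 to 0.46) in gFBXW7 against gLuc and an adjusted p of 0.96 in the edgeR quasi-likelihood test. Its 3 gFBXW7 libraries nevertheless lay just above its 3 gLuc libraries, a separation in this direction that 4.37% of all tested genes showed in this comparison.

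**Figure D1:**
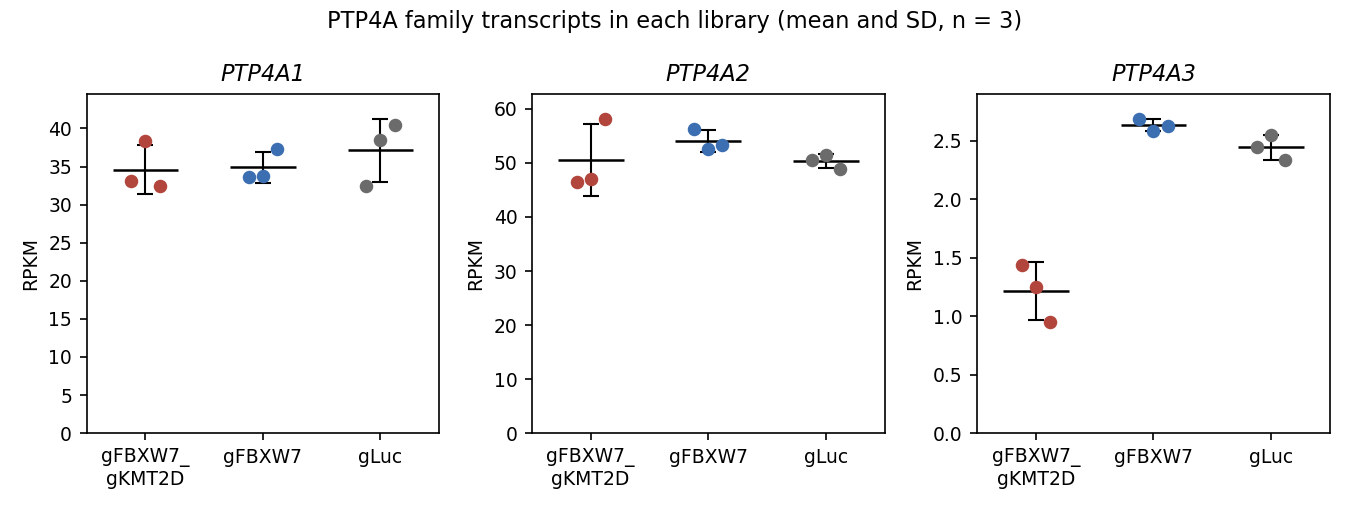
Level of PTP4A1, PTP4A2 and PTP4A3 in RPKM (vertical axes, each from 0) in the 9 libraries (points) of the gFBXW7_gKMT2D, gFBXW7 and gLuc groups, where bars give mean and SD of each group (n = 3). The gFBXW7_gKMT2D libraries of PTP4A3, at 0.951 to 1.44 RPKM, lie below all others, while the groups of PTP4A1 overlap.

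PTP4A1, the founding member, was abundant and close to level across the groups. It had 33.1, 38.3 and 32.4 RPKM in the gFBXW7_gKMT2D libraries, 33.7, 33.7 and 37.3 RPKM in the gFBXW7 libraries and 32.5, 38.4 and 40.5 RPKM in the gLuc libraries. The 3 groups overlapped, and the gLuc libraries alone spanned the whole range of the gFBXW7 libraries. The means were 34.6 ± 3.25 RPKM in gFBXW7_gKMT2D, 34.9 ± 2.09 RPKM in gFBXW7 and 37.1 ± 4.14 RPKM in gLuc (SD, n = 3 each). The log2 fold change of PTP4A1 was 0.02 (SE 0.12, 95% interval -0.25 to 0.29) in gFBXW7_gKMT2D against gFBXW7, -0.03 (SE 0.12, 95% interval -0.29 to 0.24) in gFBXW7_gKMT2D against gLuc and -0.05 (SE 0.12, 95% interval -0.31 to 0.22) in gFBXW7 against gLuc. None passed the test (adjusted p of 1.0, 0.96 and 0.96 by edgeR), and these signs turned when single libraries were left out or gene length was taken into account.

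PTP4A2, the most abundant member, had the library of gFBXW7_gKMT2D that stood apart as its highest. It had 46.4, 47.1 and 58.2 RPKM in the gFBXW7_gKMT2D libraries, 56.3, 52.6 and 53.3 RPKM in the gFBXW7 libraries and 50.6, 51.4 and 48.8 RPKM in the gLuc libraries. The gFBXW7_gKMT2D libraries lay on both sides of the other groups, 2 below all 6 and 1 above. The means were 50.5 ± 6.63 RPKM in gFBXW7_gKMT2D, 54.1 ± 1.98 RPKM in gFBXW7 and 50.3 ± 1.31 RPKM in gLuc (SD, n = 3 each).

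The log2 fold change of PTP4A2 was -0.04 (SE 0.18, 95% interval -0.44 to 0.35) in gFBXW7_gKMT2D against gFBXW7, 0.10 (SE 0.18, 95% interval -0.30 to 0.50) in gFBXW7_gKMT2D against gLuc and 0.14 (SE 0.18, 95% interval -0.25 to 0.54) in gFBXW7 against gLuc. None passed the test (adjusted p of 1.0, 0.91 and 0.96 by edgeR). Without gFBXW7_gKMT2D 3 the first was -0.27 (adjusted p = 0.64) and the second -0.13 (adjusted p = 1.0), so that the sign against gLuc rested on this library. Over all alternatives the adjusted p of PTP4A2 was 0.64 to 1.0 in the first comparison and 0.46 to 1.0 in the second. The part of its ribosomal protein share in the PTP4A2 level was not tested. Of the 2 members taken by name, 0 were called in any of the 3 comparisons, where 0.0603% of all tested genes were called in gFBXW7_gKMT2D against gFBXW7, 0.0528% in gFBXW7_gKMT2D against gLuc and 0.0% in gFBXW7 against gLuc. Neither had an unadjusted p under 0.05 in any of the 3, where 4.22%, 3.61% and 1.58% of all tested genes did, in the same order, and DESeq2 and limma-voom called neither. With so few genes called, the intervals above say more than the missing calls. Those of PTP4A1 exclude a change of the size of the fall of PTP4A3 in either direction. In the fit of all libraries those of PTP4A2 do so too, and no interval without gFBXW7_gKMT2D 3 is given. The size is taken from the values that chose PTP4A3, so it is no independent measure.

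**Figure D2:**
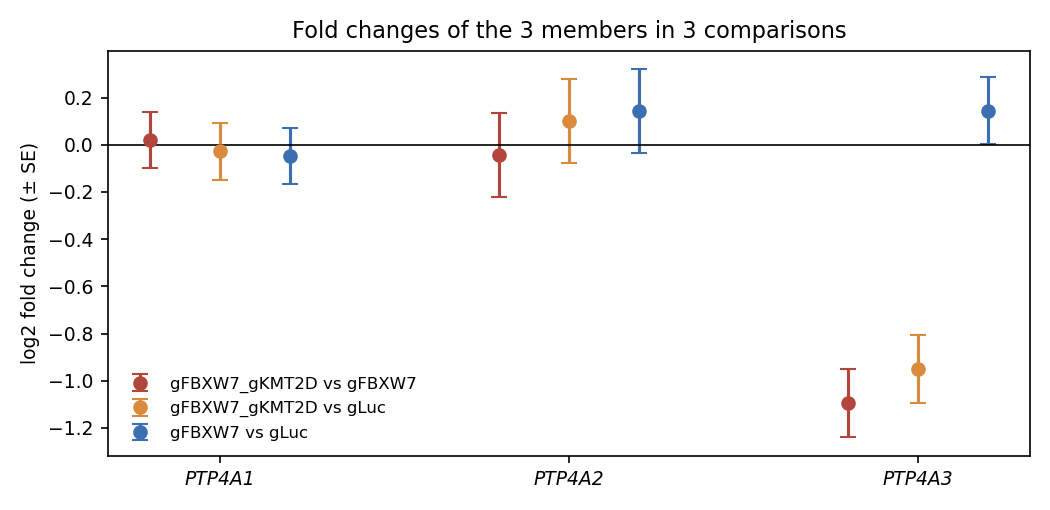
Log2 fold change (vertical axis, points with SE) of the 3 members in gFBXW7_gKMT2D against gFBXW7, gFBXW7_gKMT2D against gLuc and gFBXW7 against gLuc, from the edgeR fit of all 9 libraries. PTP4A3 is at -1.10 and -0.95 in the comparisons of gFBXW7_gKMT2D, by which it was chosen, and the other 7 values lie between -0.05 and 0.15.

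The family's total hardly followed PTP4A3, which makes up little of it in RPKM. Shares and ratios between members depend on the gene lengths used for RPKM, which are given with the ranks below. The summed level of the 3 members was 86.4 ± 5.33 RPKM in gFBXW7_gKMT2D, 91.6 ± 2.36 RPKM in gFBXW7 and 89.9 ± 3.75 RPKM in gLuc (SD, n = 3 each). PTP4A3 made up 1.78%, 1.45% and 1.04% of this sum in the gFBXW7_gKMT2D libraries, 2.90%, 2.91% and 2.82% in gFBXW7 and 2.86%, 2.76% and 2.55% in gLuc. Every gFBXW7_gKMT2D library was below every other library in this share, which contains the value that chose the gene. Without gFBXW7_gKMT2D 3 the mean share in gFBXW7_gKMT2D was 1.61%, against 1.42% ± 0.372 with it (SD, n = 3).

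The level of PTP4A2 was 32.2, 37.6 and 61.2 times that of PTP4A3 in the gFBXW7_gKMT2D libraries, 20.9, 20.3 and 20.3 times in gFBXW7 and 20.7, 20.2 and 20.9 times in gLuc. In the 6 libraries without the KMT2D-targeting RNA the ratio was thus nearly fixed, and in the 3 with it the ratio was both higher and more spread. The ratio contains the values that chose PTP4A3, so its rise there is a description. Most of the spread came from gFBXW7_gKMT2D 3, without which the ratios were 32.2 and 37.6. The ratio of PTP4A2 to PTP4A1, in which PTP4A3 has no part, was 1.40, 1.23 and 1.80 in gFBXW7_gKMT2D, 1.67, 1.56 and 1.43 in gFBXW7 and 1.56, 1.34 and 1.21 in gLuc. Here the groups overlapped.

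**Figure D3:**
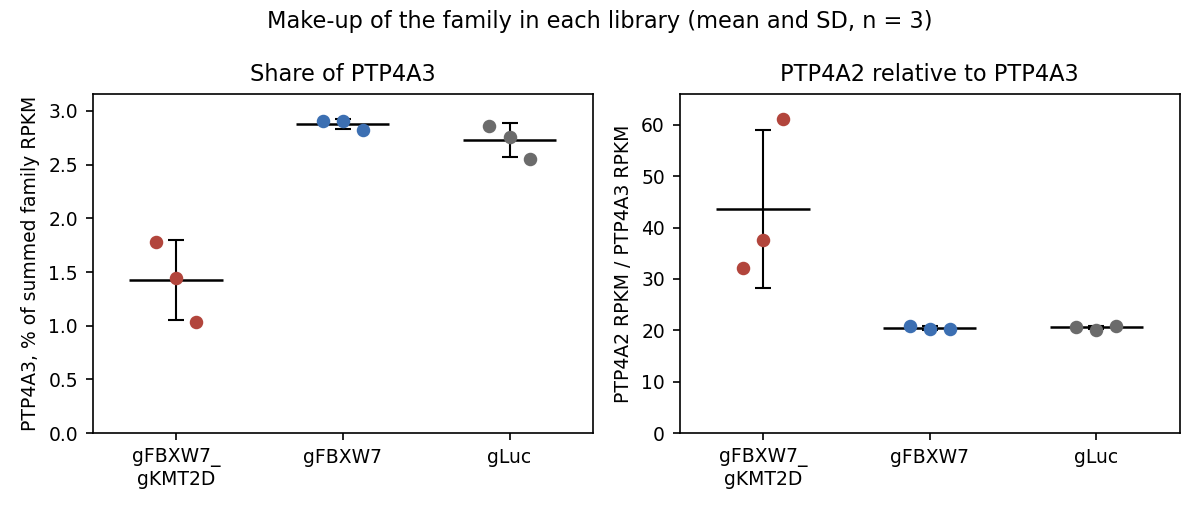
Share of PTP4A3 in the summed RPKM of the 3 members (left, %) and ratio of PTP4A2 to PTP4A3 in RPKM (right) in each library (points) by group, with mean and SD (n = 3) as bars. The share is 1.04% to 1.78% in the gFBXW7_gKMT2D libraries and 2.55% to 2.91% in the other 6, and the ratio is 32.2 to 61.2 against 20.2 to 20.9.

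In level per gene length the members fell far apart among the genes of these cells. The length used for PTP4A3 was 6309 bases, while its GENCODE v29 transcripts held 2965 distinct 50-base stretches. For PTP4A1 these values were 5346 and 5373, and for PTP4A2 4575 and 7113. A shorter length would raise the RPKM, family share and rank of PTP4A3, and other lengths were not tested. Fold changes between groups do not depend on the length. PTP4A2, at a mean of 51.6 RPKM over the 9 libraries, exceeded 89.8% of the tested genes, and PTP4A1, at 35.5 RPKM, exceeded 85.8%. PTP4A3, at 2.10 RPKM, lay under the median of 5.43 RPKM. It exceeded 25.6% of the tested genes in gFBXW7_gKMT2D, 36.9% in gFBXW7 and 34.5% in gLuc. Among 62 tested cysteine-based protein phosphatases, PTP4A2 ranked 2 by mean RPKM, PTP4A1 ranked 7 and PTP4A3 ranked 39. Ahead of PTP4A2 stood PTPN6 (119 RPKM), the SH2-domain phosphatase SHP-1 of blood cells. PTPN7 (47.5 RPKM), a phosphatase of MAP kinases in blood cells, followed PTP4A2, then DUSP12 (44.6 RPKM) and DUSP23 (42.1 RPKM), both of the dual-specificity class to which the PRL enzymes are related.

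The genes with profiles most like that of PTP4A3 were sought by the root mean square difference of log2 CPM (counts scaled to the TMM-normalised library total) over the 9 libraries, each gene centred on its own mean. Among 9976 genes, the closest were ANXA6 (0.10), SPIB (0.12), GPR132 (0.20), HVCN1 (0.20) and ELF3 (0.21), with the difference in log2 units in parentheses. PTP4A1 (0.51) and PTP4A2 (0.53) would have ranked 3905 and 4740. The 5 genes were chosen for this likeness, so their values are a description.

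ANXA6, a calcium-dependent membrane-binding protein, had 5.44, 5.26 and 3.60 RPKM in gFBXW7_gKMT2D, 9.89, 10.3 and 9.16 RPKM in gFBXW7 and 9.86, 10.6 and 10.1 RPKM in gLuc. SPIB, an ETS-family transcription factor of B cells and plasmacytoid dendritic cells, had 0.716, 0.680 and 0.537 RPKM in gFBXW7_gKMT2D, 1.59, 1.70 and 1.39 RPKM in gFBXW7 and 1.49, 1.65 and 1.28 RPKM in gLuc. In RPKM gFBXW7_gKMT2D 3 was the lowest library of both genes, as of PTP4A3, and the gFBXW7 and gLuc libraries overlapped or nearly met. In log2 CPM, the scale of the likeness, gFBXW7_gKMT2D 2 and 3 were close for PTP4A3 (2.88 and 2.84). For SPIB gFBXW7_gKMT2D 2 was the lowest on that scale. The falls of the other three were smaller. GPR132, a G protein-coupled receptor of lymphocytes and macrophages, had log2 fold changes of -0.74 against gFBXW7 and -0.69 against gLuc in the gFBXW7_gKMT2D cells. HVCN1, the voltage-gated proton channel of B cells and phagocytes, had -0.65 and -0.62, and ELF3, an epithelial ETS factor, -0.75 and -0.50, in the same order.

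**Figure D4:**
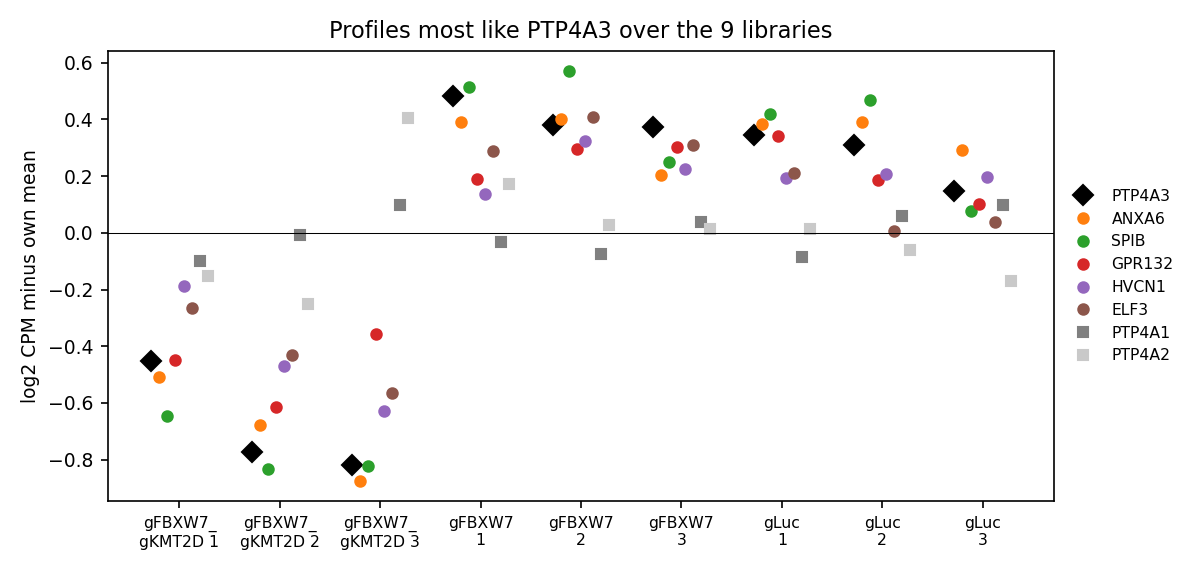
Log2 CPM minus the gene's own mean over the 9 libraries (vertical axis) for PTP4A3 (diamonds), the 5 genes with the closest profiles (circles) and PTP4A1 and PTP4A2 (squares), by library. PTP4A3 and the 5 genes are below 0 in the 3 gFBXW7_gKMT2D libraries and near or above 0 in the other 6, while PTP4A2 is highest in gFBXW7_gKMT2D 3.

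Few reads fell in the genes around PTP4A3. Of the 5 genes of the table on each side of it in RefSeq order, only SLC45A4, a solute carrier, passed the filter, and the 9 others held 0 to 4 reads in all libraries together. SLC45A4 had 0.534, 0.719 and 0.209 RPKM in gFBXW7_gKMT2D, 0.450, 0.533 and 0.615 RPKM in gFBXW7 and 0.520, 0.626 and 0.657 RPKM in gLuc. Its libraries overlapped in all 3 groups, with log2 fold changes of -0.13 (SE 0.29) in gFBXW7_gKMT2D against gFBXW7 and -0.26 (SE 0.29) in gFBXW7_gKMT2D against gLuc (adjusted p of 1.0 and 0.90 by edgeR).

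The neighbours of the other members held more reads. Next to PTP4A1, PHF3 (5.81 RPKM on average) and the RNA-binding protein gene KHDRBS2 (0.371 RPKM) were the nearest tested genes. Their log2 fold changes were 0.19 (SE 0.27) and 0.20 (SE 0.16) in gFBXW7_gKMT2D against gFBXW7. Next to PTP4A2 the nearest was KHDRBS1 (100.2 RPKM), which encodes the RNA-binding protein SAM68, with a log2 fold change of 0.01 (SE 0.14). Of the 9 tested neighbours of the 3 members, 0 were called in each of the 3 comparisons by edgeR, DESeq2 or limma-voom. By unadjusted p under 0.05, 0 were past it in the 2 comparisons of gFBXW7_gKMT2D and 1, EYS beside PTP4A1, in gFBXW7 against gLuc.

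The magnesium pathway in which PRL enzymes act through CNNM showed no called gene. Of its 18 genes, 14 were tested, and 0 rose and 0 fell in each of the 3 comparisons by edgeR, with 0 at an unadjusted p under 0.05 and 0 by DESeq2 or limma-voom. The median log2 fold change was 0.04 in gFBXW7_gKMT2D against gFBXW7, -0.07 in gFBXW7_gKMT2D against gLuc and -0.13 in gFBXW7 against gLuc, beside 0.02, 0.00 and -0.004 over all tested genes. Among the CNNM partners, CNNM3 was the highest at 6.65 RPKM, followed by CNNM4 at 2.31 RPKM and CNNM2 at 0.308 RPKM, and CNNM1 had no read in any library.

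CNNM3 had 6.73, 7.78 and 5.79 RPKM in gFBXW7_gKMT2D, 5.64, 6.51 and 6.21 RPKM in gFBXW7 and 6.58, 6.89 and 7.73 RPKM in gLuc, and the groups overlapped. CNNM4 spread more widely in gFBXW7_gKMT2D, with 2.56, 3.35 and 1.43 RPKM there, 1.91, 2.04 and 2.15 RPKM in gFBXW7 and 1.88, 2.33 and 3.17 RPKM in gLuc. The log2 fold change of CNNM3 was 0.17 (SE 0.11) in gFBXW7_gKMT2D against gFBXW7 and 0.00 (SE 0.11) in gFBXW7_gKMT2D against gLuc, and that of CNNM4 was 0.27 (SE 0.23) and 0.04 (SE 0.23). MAGT1, a magnesium transporter and oligosaccharyltransferase subunit, was the most abundant gene of the list at 65.8 RPKM, and NIPA2, a magnesium transporter, followed at 40.5 RPKM. Their log2 fold changes in gFBXW7_gKMT2D against gFBXW7 were -0.07 (SE 0.15) and -0.01 (SE 0.15).

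The enzymes that prenylate and trim proteins with a C-terminal CAAX box, as PRL enzymes have, were likewise not called. Of 7 genes, 6 were tested, with 0 called by edgeR, DESeq2 or limma-voom and 0 at an unadjusted p under 0.05 in each of the 3 comparisons. FNTA, the alpha subunit of farnesyltransferase, averaged 36.6 RPKM and had log2 fold changes of -0.03 (SE 0.15) in gFBXW7_gKMT2D against gFBXW7 and -0.05 (SE 0.15) in gFBXW7_gKMT2D against gLuc. ZMPSTE24, a CAAX protease, averaged 34.7 RPKM and had -0.14 (SE 0.13) and -0.18 (SE 0.13). The row of FNTB, the farnesyltransferase beta subunit, held no read in any library, and neither did the row of the readthrough gene CHURC1-FNTB, while CHURC1 held 6766 reads. These 2 genes overlap in the GENCODE annotation, no level of FNTB is given, and how reads in overlapping genes were counted is not given in the sources used here.

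Of 28 genes reported as partners of PRL enzymes or downstream of them, 20 were tested and 0 were called in any of the 3 comparisons by edgeR, DESeq2 or limma-voom. At an unadjusted p under 0.05 there were 2 (CSK and RHOC) in gFBXW7_gKMT2D against gFBXW7, 2 (RHOC and EGR1) in gFBXW7_gKMT2D against gLuc and 1 (EGR1) in gFBXW7 against gLuc, beside 4.22%, 3.61% and 1.58% of all tested genes. The median log2 fold changes in these comparisons were -0.04, 0.01 and 0.07. The most abundant were NCL (926 RPKM), which encodes nucleolin, and the intermediate filament gene VIM (733 RPKM). SRC, a kinase described downstream of PTP4A3, had 27 reads in all 9 libraries and was not tested.

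CSK, the kinase that restrains SRC-family kinases and is described to fall when PTP4A3 is overexpressed, had 67.2, 62.2 and 59.1 RPKM in gFBXW7_gKMT2D, 75.2, 86.7 and 86.4 RPKM in gFBXW7 and 77.9, 72.2 and 73.5 RPKM in gLuc. Its gFBXW7_gKMT2D libraries were below all others in RPKM. After TMM scaling they overlapped with gLuc and stayed below gFBXW7, a separation that 5.2% of all tested genes showed. The log2 fold changes of CSK were -0.36 (SE 0.13, adjusted p = 1.0) against gFBXW7 and -0.17 (SE 0.13, adjusted p = 0.90) against gLuc by edgeR. RHOC, a small GTPase described to be activated with PTP4A3, had 11.8, 11.2 and 6.46 RPKM in gFBXW7_gKMT2D, 17.3, 14.5 and 14.5 RPKM in gFBXW7 and 14.9, 13.0 and 13.7 RPKM in gLuc. RHOC was lowest in gFBXW7_gKMT2D 3 and did not pass the test (adjusted p of 0.89 and 0.90 by edgeR). MEF2C, a transcription factor reported to induce PTP4A3 in other cells, averaged 74.2 RPKM and had log2 fold changes of 0.22 (SE 0.16) in gFBXW7_gKMT2D against gFBXW7 and 0.01 (SE 0.16) in gFBXW7_gKMT2D against gLuc, and its groups overlapped.

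In the interleukin-6 and STAT3 list, 9 of 10 genes were tested and 0 were called by edgeR, DESeq2 or limma-voom in any of the 3 comparisons. At an unadjusted p under 0.05 there were 2 (IL6R and SOCS3) in gFBXW7_gKMT2D against gFBXW7, 1 (SOCS3) in gFBXW7_gKMT2D against gLuc and 0 in gFBXW7 against gLuc, where 4.22%, 3.61% and 1.58% of all tested genes were past it. The medians were -0.10, -0.27 and -0.07, beside 0.02, 0.00 and -0.004 over all tested genes. Of the members, 6 of 9, 8 of 9 and 6 of 9 were negative, and the share of negative genes over all tested genes is not given. STAT3 itself averaged 13.8 RPKM and had log2 fold changes of 0.05 (SE 0.12) and 0.06 (SE 0.12) in the comparisons of gFBXW7_gKMT2D. SOCS3, the feedback inhibitor that STAT3 induces, had 0.821, 0.918 and 0.403 RPKM in gFBXW7_gKMT2D, 1.45, 1.46 and 1.31 RPKM in gFBXW7 and 1.30, 1.18 and 1.61 RPKM in gLuc. Its libraries were apart as in PTP4A3, and so were those of 5.2% of all tested genes against gFBXW7 and 3.69% against gLuc. The log2 fold changes of SOCS3, -0.96 (SE 0.23) and -0.87 (SE 0.23), did not pass the test (adjusted p of 0.70 and 0.90 by edgeR). MCL1 (113 RPKM), a survival protein of plasma cells, and the kinase JAK1 (18.1 RPKM) were the most abundant, with log2 fold changes of -0.20 (SE 0.15) and 0.01 (SE 0.30) in gFBXW7_gKMT2D against gFBXW7.

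In the wider phosphatase families no gene was called. Of 44 dual-specificity and related phosphatases, 36 were tested, and of 37 classical protein tyrosine phosphatases, 23 were tested, with 0 called in either list in any of the 3 comparisons by edgeR, DESeq2 or limma-voom. At an unadjusted p under 0.05 the first list had 2, 1 and 1 and the second 3, 2 and 1 genes, in the order gFBXW7_gKMT2D against gFBXW7, gFBXW7_gKMT2D against gLuc and gFBXW7 against gLuc. Over all tested genes the shares were 4.22%, 3.61% and 1.58%. The medians were 0.03, 0.08 and 0.05 in the first list and 0.04, -0.20 and -0.16 in the second. The tested members of the dual-specificity list ran from -0.35 to 0.74, from -0.30 to 0.70 and from -0.90 to 0.41 in log2 fold change, and those of the classical list from -0.44 to 1.59, from -0.87 to 0.90 and from -1.36 to 0.24, in the same order of comparisons. The lowest of the classical list in gFBXW7_gKMT2D against gFBXW7 was PTPN6 (-0.44, SE 0.16, adjusted p = 1.0). The highest there was PTPRC, the receptor phosphatase CD45 of blood cells, which was scarce, with 0.0747, 0.121 and 0.0760 RPKM in gFBXW7_gKMT2D, 0.0279, 0.0211 and 0.0416 RPKM in gFBXW7 and 0.0320, 0.0573 and 0.0645 RPKM in gLuc. It held 117 reads in all libraries together. Its log2 fold changes in gFBXW7_gKMT2D of 1.59 (SE 0.35) against gFBXW7 and 0.90 (SE 0.33) against gLuc did not pass the test (adjusted p of 0.52 and 0.90 by edgeR). PTPRE (0.93, SE 0.41) in the classical list and TPTE (0.74, SE 0.25) in the dual-specificity list were also higher in value in gFBXW7_gKMT2D against gFBXW7 without passing the test. PTPN21, at 0.0685 RPKM on average, had -0.87 (SE 0.37) in gFBXW7_gKMT2D against gLuc and -1.36 (SE 0.39) in gFBXW7 against gLuc, again without passing it. PTPN7 had 0.05 (SE 0.19), DUSP12 -0.002 (SE 0.17) and DUSP23 0.04 (SE 0.42) in gFBXW7_gKMT2D against gFBXW7.

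**Figure D5:**
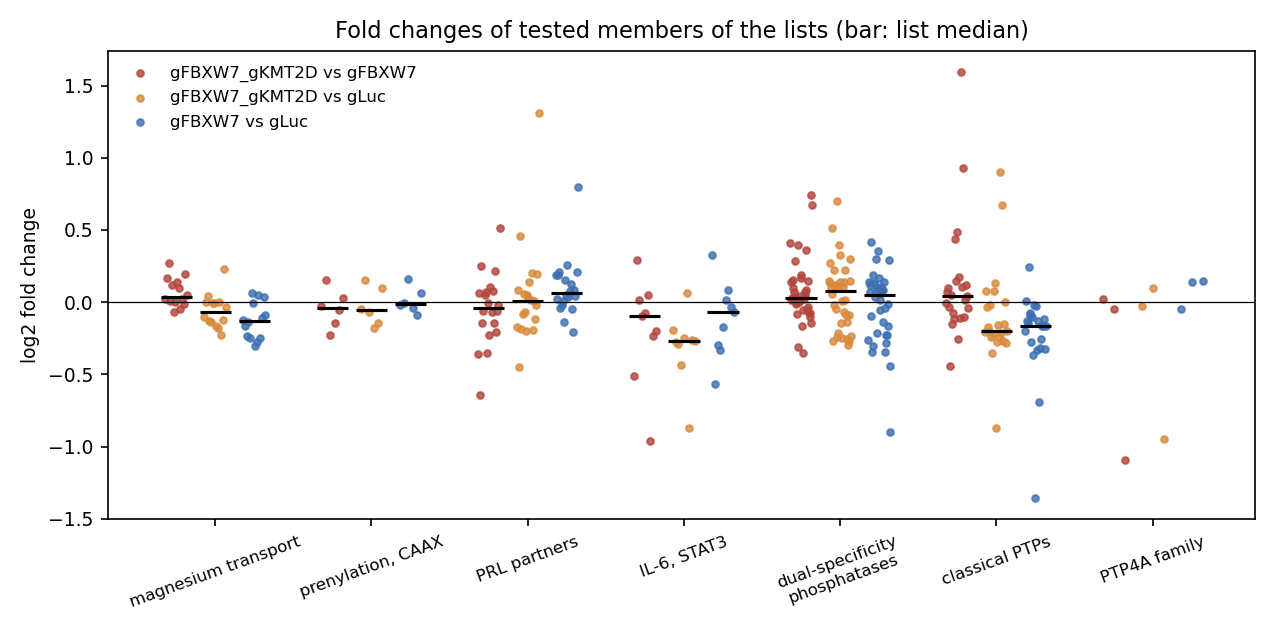
Log2 fold change (vertical axis) of each tested member (points) of the 6 gene lists and of the 3 PTP4A genes in gFBXW7_gKMT2D against gFBXW7, gFBXW7_gKMT2D against gLuc and gFBXW7 against gLuc, with the list median as a bar. The list medians lie between -0.27 and 0.08, and no list member was called.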

How the data were processed

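The deposited table holds a raw read count for each gene and library and, per the file headers, an RPKM value. The submitters' processing notes name Trimmomatic, STAR, featureCounts and DESeq2 with build GRCh38, without versions. RPKM recomputed from counts, gene length and library totals differed from the deposited RPKM by at most 8.5e-07 of its value. The unnamed row of totals was left out. No 2 libraries of a group were duplicates (chi-square of their counts over its degrees of freedom, 6.36 to 231).

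Counts were analysed with edgeR 4.0.16 in R 4.3.3: filterByExpr by group, TMM, 1 quasi-likelihood fit of all 9 libraries with group as the only term, Benjamini-Hochberg adjustment over 13262 genes and a threshold of 0.05. Standard errors came from the fold change and F statistic. Log2 CPM used a prior count of 2. The fit was tested on simulated data. Each p-value sets the difference between groups against the spread between libraries of the same group. Sequences came from GENCODE v29 and were aligned with Biopython 1.88.

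Members and lists were chosen with earlier results of these data known. Named genes are the members, CNNM genes, FNTA, FNTB, SRC, CSK, STAT3, MEF2C, the 2 most abundant tested genes of each list, any called list gene, the 5 nearest profiles and the nearest tested neighbours. Other genes (FBXW7, KMT2D, SDC1, EYS, HBB, PECAM1, RHOC, EGR1, IL6R, SOCS3, PTPN21, PTPRC, PTPRE, TPTE) were named after their values were seen. Alternatives were DESeq2 size factors, upper quartile scaling, no filter, a mean of 50 reads, DESeq2 1.42.0, limma-voom (limma 3.58.1), the 6 compared libraries, a replicate block, single libraries left out and, added later, removal of the gene length trend (lowess, span 0.3). Tables and figures used Python 3.11.15.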

Additional observations from a re-analysis of the deposited data

How the results depend on the processing

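PTP4A3 stayed lower in gFBXW7_gKMT2D under all 18 alternatives of each comparison, with a log2 fold change of -1.22 to -1.03 against gFBXW7 and -1.08 to -0.88 against gLuc. These alternatives reuse the values that chose PTP4A3, so the kept sign is a description and not a test of the fall. In gFBXW7 against gLuc the log2 fold change of PTP4A3 was 0.079 to 0.22 (adjusted p 0.63 to 1.0). PTP4A1 and PTP4A2 passed the threshold under none, and the 378 recounts of list members and neighbours were all 0. With single libraries left out, log2 fold changes of PTP4A1 were -0.026 to 0.066 in gFBXW7_gKMT2D against gFBXW7, -0.081 to 0.020 in gFBXW7_gKMT2D against gLuc and -0.10 to -0.019 in gFBXW7 against gLuc. Those of PTP4A2 were -0.27 to 0.078, -0.13 to 0.22 and 0.088 to 0.19. Removing the gene length trend turned PTP4A1 to 0.045 in gFBXW7_gKMT2D against gLuc and 0.0090 in gFBXW7 against gLuc. As a share of family counts, not of RPKM, PTP4A3 made up 1.83% in gFBXW7_gKMT2D, 3.69% in gFBXW7 and 3.48% in gLuc, since its gene length is the largest; without single libraries the RPKM shares were 1.24% to 1.61%, 2.86% to 2.91% and 2.66% to 2.81%.

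The number of called genes varied most. The 8 in gFBXW7_gKMT2D against gFBXW7 became 5 with upper quartile scaling or the length trend removed, 33 with no filter, 32 with DESeq2, 0 with the 6 compared libraries and 0 to 7 without single libraries. The 7 in gFBXW7_gKMT2D against gLuc became 21 with no filter, 24 with DESeq2, 2 with the 6 compared libraries and 2 to 8 without single libraries. In gFBXW7 against gLuc, DESeq2 called 1 gene against 0. The cause was not tested. With the replicate block the counts were 2, 2 and 0. Libraries with the same number did not deviate together throughout (r across genes from -0.59 to 0.45), so they were not treated as pairs. Between gLuc and gFBXW7 these r were 0.45, 0.022 and 0.35, and those with gFBXW7_gKMT2D had both signs. Some libraries with different numbers deviated together more strongly. For gLuc 3 with gFBXW7_gKMT2D 2 r was 0.72, and for gLuc 1 with gFBXW7_gKMT2D 3 it was 0.62. For gLuc 1 with gFBXW7_gKMT2D 2 it was -0.74. The source of this variation across groups was not tested. With 98 to 324 reads a library, PTP4A3 is the member that depth limits most.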
